A study of Mus musculus with 9 samples.

Results

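The 9 genes described here encode the 4 mouse Fc gamma receptors (Fcgr1, Fcgr2b, Fcgr3 and Fcgr4), the immune receptor Trem2, the adaptors Fcer1g and Tyrobp, the kinase Syk and the phospholipase Plcg2. They were taken by symbol from the 18272 genes of the expression table of a mouse tibia study, and 9 of the 9 passed the filter on low counts that 13960 genes passed. The genes were chosen by function and with their measured levels in the same 9 libraries known (in T1D, NGT and Lira mice), so that their levels and differences between groups are given as a description, without a test. The table holds 1 RNA-seq library from the tibia of each of 9 female C57BL/6J mice, bought at 10 to 11 weeks of age and acclimatized for 1 week. NGT mice (3, normal glucose tolerance) received vehicle and then saline. T1D mice (3) received streptozotocin, a compound toxic to pancreatic beta cells, and then saline. Lira mice (3) received streptozotocin and, from 2 weeks later, liraglutide, a drug that activates the GLP-1 receptor, for 8 weeks at a dose of 0.6 mg/kg/day. The label of Lira mouse 3 gives 9 weeks of treatment. Streptozotocin diabetes is a chemically induced model, and all mice were of 1 strain and 1 sex.

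Fc gamma receptors bind the constant part of immunoglobulin G on the surface of macrophages, neutrophils, osteoclasts and other leukocytes. The activating receptors (Fcgr1, Fcgr3 and Fcgr4) have no signaling motif of their own and depend on Fcer1g, the common Fc receptor gamma chain, whose immunoreceptor tyrosine-based activation motif (ITAM) recruits Syk, which in turn leads to Plcg2 and a rise in calcium. Fcgr2b carries an inhibitory motif instead. Trem2, a receptor for lipids and lipoproteins, signals through the ITAM of Tyrobp, also called DAP12. In bone, Fcer1g and Tyrobp relay the costimulatory signal that acts beside RANK in the formation of osteoclasts.

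The stretches of promoter in front of 5 receptor genes are shown, since they let a reader compare the activating receptors and Trem2 with the inhibitory Fcgr2b. Each line holds the 150 bases upstream of the gene's start on its own strand, from RefSeq on GRCm38.p6. Capitals mark matches on either strand to GAGGAA (the core of the site of PU.1, the transcription factor of myeloid cells) or GAGGAAGT (a longer form that contains the former), to TTCNNNGAA (a gamma-activated sequence, bound by STAT factors) and to the interferon-stimulated response element (ISRE, searched as GAAA repeated after 2 bases of any kind).
Fcgr1, chr3:96293970-96294119, minus strand: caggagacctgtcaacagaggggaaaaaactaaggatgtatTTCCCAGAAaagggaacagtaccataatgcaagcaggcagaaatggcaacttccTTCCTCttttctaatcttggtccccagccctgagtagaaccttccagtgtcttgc
Fcgr3, chr1:171059404-171059553, minus strand: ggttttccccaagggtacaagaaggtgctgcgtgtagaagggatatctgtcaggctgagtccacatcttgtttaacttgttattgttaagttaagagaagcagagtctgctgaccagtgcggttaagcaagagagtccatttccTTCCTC
Fcgr4, chr1:171018776-171018925, plus strand: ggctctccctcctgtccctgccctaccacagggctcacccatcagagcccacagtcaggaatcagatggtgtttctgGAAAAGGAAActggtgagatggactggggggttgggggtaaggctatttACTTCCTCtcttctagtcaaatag
Trem2, chr17:48346251-48346400, plus strand: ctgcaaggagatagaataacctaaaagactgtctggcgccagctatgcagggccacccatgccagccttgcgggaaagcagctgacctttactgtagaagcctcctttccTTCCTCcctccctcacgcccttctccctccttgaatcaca
Fcgr2b, chr1:170976072-170976221, minus strand: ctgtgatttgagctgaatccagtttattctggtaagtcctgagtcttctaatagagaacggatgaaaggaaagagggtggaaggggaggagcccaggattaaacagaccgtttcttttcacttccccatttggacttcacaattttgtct
The search covered 300 bases for each gene, 250 before to 50 after the start, and the motifs were chosen after the levels were known. GAGGAA was found in front of Fcgr1, Fcgr3, Fcgr4 and Trem2 at positions -55, -6, -22 and -40, and was not found in the windows of Fcgr2b, Fcer1g and Plcg2. Of 32851 mouse promoter windows, 28.3% held GAGGAA. GAGGAAGT was found for Fcgr4, as in 3.2% of all windows. TTCNNNGAA was found for Fcgr1 (8.3% of all windows) and the ISRE for Fcgr4 (3.44%). Fcgr3 has 2 listed starts, of which the first is shown. Syk also has 2, of which the second held GAGGAA at position -9, whereas Tyrobp has no entry in the table of promoters. These matches describe letters and not binding.

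Among the 9 libraries, which held 13086343 to 16528372 counts each, 2 stood at the top for these genes. T1D mouse 1 had the highest level of 7 of the 9 genes, and Lira mouse 3 that of Syk and Plcg2 and the second highest of the other 7. NGT mouse 2 was the lowest for 9 of the 9. Over all tested genes, T1D mouse 1 was the highest library for 20.7% and Lira mouse 3 for 19.9%. Levels of the 9 genes in each mouse are given in CPM (counts scaled to a common library size), over the TMM-scaled library total. Other genes, marker sums and comparisons between genes are given in FPKM as deposited, which is per length and is not TMM-scaled, and the order of mice can differ between these scales. The floor set by 3 counts, the limit a count of 0 allows, was 0.182 to 0.229 CPM over the raw library total, which is not TMM-scaled. In NGT mouse 2, Fcgr1 with 1 count, Trem2 with 2 counts and Fcgr4 with 0 counts lay under 3 counts. Intervals and floors cover counting error only.

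**Figure D1:**
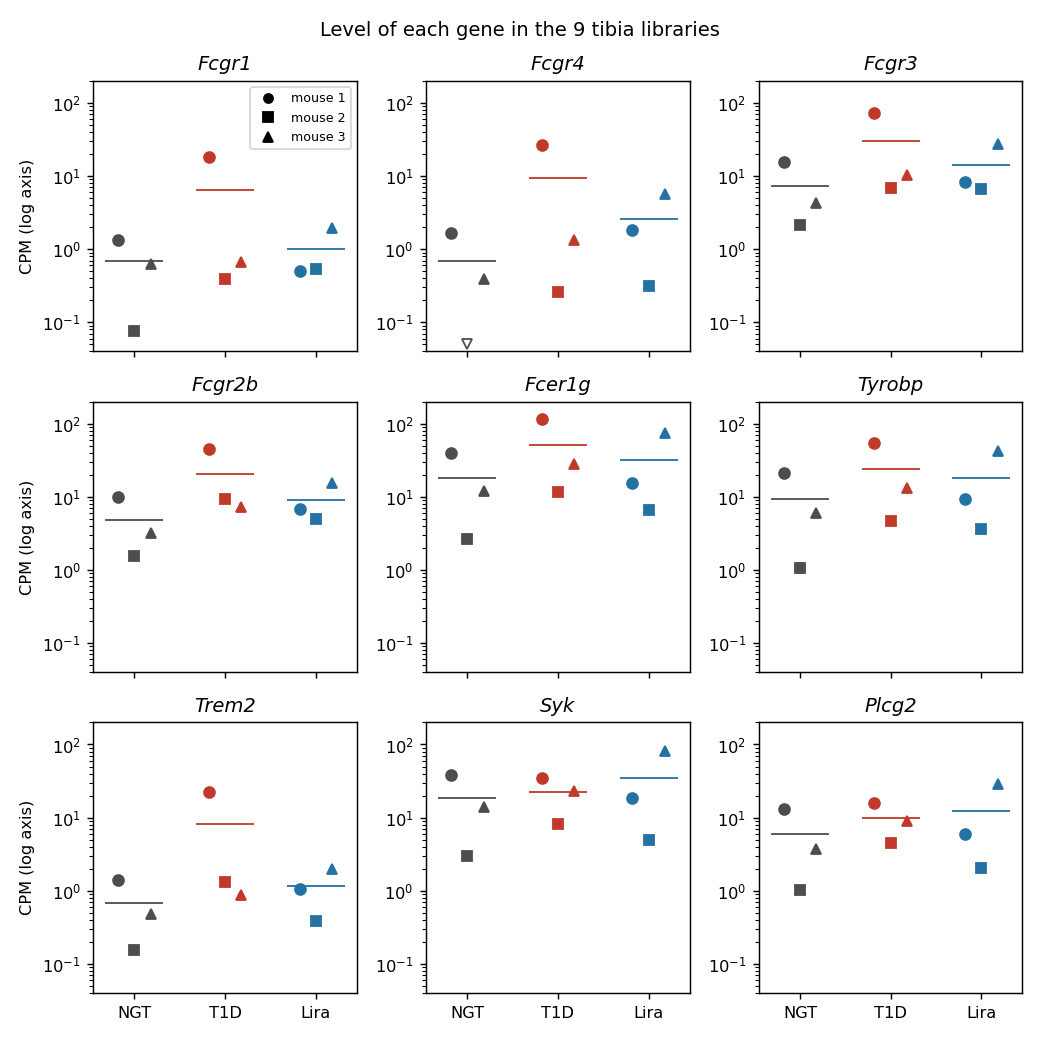
Level of each of the 9 genes in CPM (log axis) in the 9 tibia libraries, 1 point per mouse, with the group mean as a line. The marker shape gives the mouse number, and the open triangle stands for 0 counts (Fcgr4 in NGT mouse 2). T1D mouse 1 lies above the other 8 libraries for 7 genes, and Lira mouse 3 for Syk and Plcg2.

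Fcgr1, the high-affinity receptor for IgG, had the narrowest base of reads. Its level was 1.33, 0.0773 and 0.633 CPM in NGT mice 1 to 3, 18.3, 0.393 and 0.667 CPM in T1D mice, and 0.5, 0.545 and 1.95 CPM in Lira mice. Behind these values stood 336 counts in T1D mouse 1 and 1 to 34 counts in each other library. T1D mice 2 and 3 lay within the range of the NGT mice, so that the mean of T1D, 6.44 ± 10.2 CPM (SD, n = 3), was carried by 1 mouse. The fitted log2 fold change of T1D against NGT was 3.21 ± 1.5 (SE) and turned to -0.38 without T1D mouse 1.

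Fcgr4, the mouse receptor for IgG2a, IgG2b and IgG2c, behaved similarly. It was at 1.65, 0 and 0.396 CPM in NGT mice, 26.8, 0.262 and 1.33 CPM in T1D mice and 1.86, 0.312 and 5.68 CPM in Lira mice. The groups overlapped, and NGT mouse 2, with 0 counts, was below its floor. The log2 fold change of T1D against NGT was 3.75 ± 1.82 (SE), the largest of the 9 genes, and 0.19 without T1D mouse 1.

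Fcgr3, the low-affinity activating receptor, was the most abundant of the 4 receptors per length in 8 of the 9 libraries. It was at 15.4, 2.17 and 4.27 CPM in NGT mice, 73.8, 6.94 and 10.3 CPM in T1D mice and 8.42, 6.62 and 27.1 CPM in Lira mice. T1D mice 2 and 3 lay between NGT mice 1 and 3. The log2 fold change of T1D against NGT was 2.05 ± 1.07 (SE) and 0.24 without T1D mouse 1.

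Fcgr2b, the inhibitory receptor, was at 9.90, 1.55 and 3.17 CPM in NGT mice, 45.3, 9.36 and 7.34 CPM in T1D mice and 6.92, 4.91 and 15.5 CPM in Lira mice. Here each T1D mouse was above NGT mice 2 and 3, but NGT mouse 1 was above T1D mice 2 and 3. The log2 fold change of T1D against NGT was 2.08 ± 0.90 (SE). Without T1D mouse 1 it was 0.77, the largest value that any of the 9 genes kept in that setting.

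Fcgr2b and Fcgr3 lie close together on chromosome 1 and share sequence, so that the division of reads between them is uncertain. Their expected counts were fractional, whereas the sum over both genes was whole in 9 of 9 libraries (tolerance 0.005), for example 833.35 and 1357.65 counts in T1D mouse 1, or 2191 together. The longest identical run of their coding sequences in the GRCm38 annotation is 129 bases, positions 278 to 406 of 1023 in Fcgr2b and 263 to 391 of 804 in Fcgr3. It is shown because reads inside it cannot be assigned to 1 of these genes.
Run shared by Fcgr2b and Fcgr3: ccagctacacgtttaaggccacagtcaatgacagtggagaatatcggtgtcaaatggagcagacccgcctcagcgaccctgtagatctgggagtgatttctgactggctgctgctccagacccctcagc
Of all stretches of 50 bases in the coding sequence, 17.0% of those of Fcgr2b and 22.0% of those of Fcgr3 occur in the other gene. Fcgr4 and Fcgr1 shared no such stretch with Fcgr3.

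The mix of receptors differed between libraries. Fcgr3 made up 42.4% to 57.5% and Fcgr2b 27.8% to 54.6% of the summed FPKM of the 4 receptors. Fcgr4 contributed 18.7% in T1D mouse 1, 11.6% and 12.6% in Lira mice 1 and 3, and 0% to 7.58% in the other libraries. Fcgr1 contributed 6.06% in T1D mouse 1 and 1.21% to 3.95% in the other libraries. The summed FPKM of the 3 activating receptors was 2.60 times that of Fcgr2b in T1D mouse 1, 2.33 times in Lira mouse 3, and 0.831 times in T1D mouse 2, the only library of the 9 in which the inhibitory receptor outweighed them. This ratio carries the uncertain division between Fcgr2b and Fcgr3.

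Trem2 stood farthest apart in T1D mouse 1. It was at 1.40, 0.155 and 0.475 CPM in NGT mice, 22.2, 1.31 and 0.867 CPM in T1D mice and 1.07, 0.389 and 2.01 CPM in Lira mice. T1D mouse 1 held 408 counts and the other 8 libraries 2 to 35 counts. Its level was 12.3 times that of the next library, Lira mouse 3, in FPKM and 11 times in CPM, the largest such gap of the 9 genes. T1D mice 2 and 3 lay within the range of the NGT mice. The log2 fold change of T1D against NGT was 3.55 ± 1.36 (SE) and 0.66 without T1D mouse 1.

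The adaptors were the most abundant of the 9 genes per length. Fcer1g was at 39.5, 2.63 and 12.0 CPM in NGT mice, 116, 11.5 and 28.0 CPM in T1D mice and 15.3, 6.62 and 75.3 CPM in Lira mice. Tyrobp was at 20.9, 1.08 and 6.02 CPM in NGT mice, 54.1, 4.65 and 13.4 CPM in T1D mice and 9.21, 3.58 and 41.8 CPM in Lira mice. Mouse 1 of NGT was above T1D mice 2 and 3 for both genes. T1D mouse 1 exceeded the next library, Lira mouse 3, by 1.71 times for Fcer1g and 1.44 times for Tyrobp in FPKM, much less than for Trem2 or Fcgr1. The log2 fold changes of T1D against NGT were 1.52 ± 1.2 for Fcer1g and 1.36 ± 1.24 (SE) for Tyrobp, and 0.12 and -0.06 without T1D mouse 1.

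Syk, the tyrosine kinase that docks on phosphorylated ITAMs, had another order of mice. It was at 38.4, 2.94 and 13.9 CPM in NGT mice, 35.3, 8.18 and 23.0 CPM in T1D mice and 18.6, 4.98 and 81.7 CPM in Lira mice. Lira mouse 3 was the highest library, and T1D mouse 1 was below NGT mouse 1. The phospholipase Plcg2 was at 13.2, 1.01 and 3.72 CPM in NGT mice, 15.8, 4.52 and 8.87 CPM in T1D mice and 6.00, 2.02 and 29.2 CPM in Lira mice. Again Lira mouse 3 was the highest, followed by T1D mouse 1 and NGT mouse 1. The log2 fold changes of T1D against NGT were 0.26 ± 1.08 (SE) for Syk and 0.70 ± 1.07 for Plcg2, the smallest of the 9 genes. For Syk it was -0.25 without T1D mouse 1, -0.24 without NGT mouse 2 and 1.40 without NGT mouse 1. For Plcg2 it was 0.15, 0.20 and 2.05 in these settings, so that single mice turned the sign of Syk and moved both values.

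Ratios of counts inside a library do not depend on its scaling. Per 100 counts of its adaptor Tyrobp, Trem2 had 41.0 counts in T1D mouse 1 (exact 95% interval 36.4 to 46.0) and 28.2 in T1D mouse 2 (16.2 to 46.8). T1D mouse 3 had 6.47 (3.38 to 11.3), and the NGT and Lira mice had 4.81 to 14.3, the latter in NGT mouse 2 from 2 counts (1.58 to 62.2). The T1D group therefore held the highest ratios in 2 mice and one of the lowest in the other. Per 100 counts of Fcer1g, Fcgr1 had 15.8 counts in T1D mouse 1 (14.0 to 17.7) and 2.38 to 8.24 elsewhere. Fcgr4 had 23.2 counts in T1D mouse 1 (21.0 to 25.6), 12.1 in Lira mouse 1 (7.72 to 18.2) and 0 to 7.55 in the other libraries. Syk moved the other way, with 30.5 counts per 100 of Fcer1g in T1D mouse 1 (27.9 to 33.3) and 71.0 to 121 elsewhere. The adaptors kept close to each other, with 40.3 to 60.0 Tyrobp counts per 100 of Fcer1g in the 9 libraries. Plcg2 ranged from 26.7 to 55.2 counts per 100 of Syk.

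**Figure D2:**
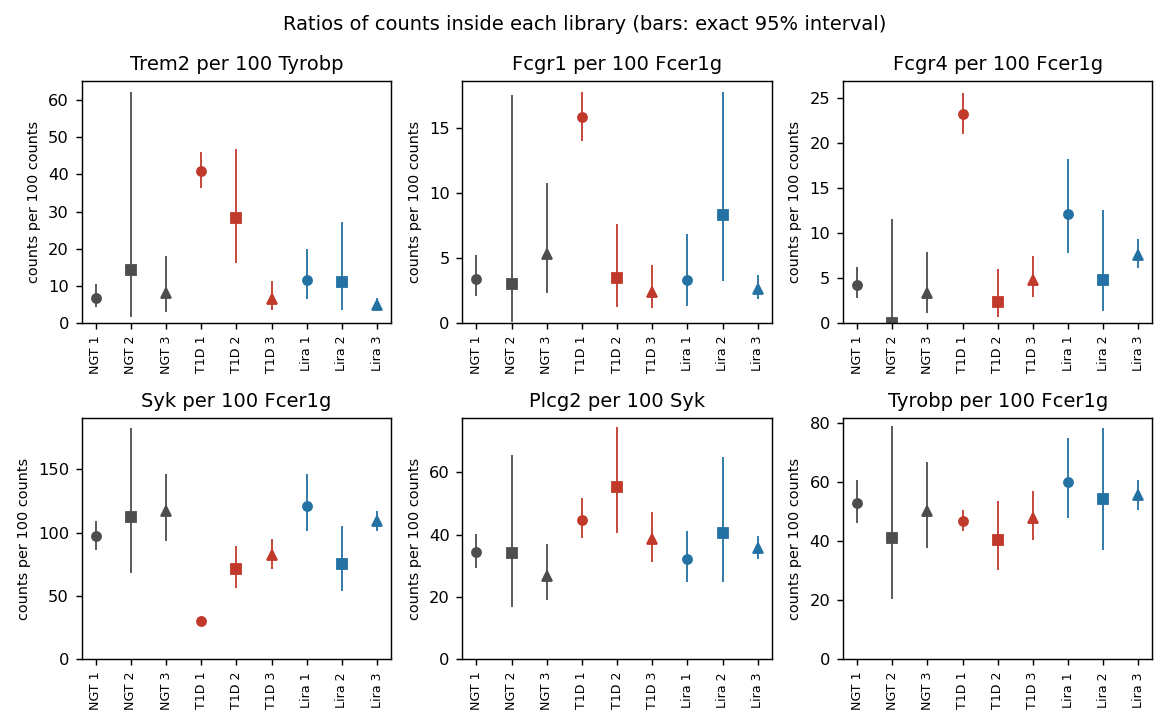
Counts of 1 gene per 100 counts of another in each of the 9 libraries (horizontal axis), with the exact 95% interval, which covers counting error only. T1D mouse 1 is the highest library for Trem2 per Tyrobp (41.0), Fcgr1 per Fcer1g (15.8) and Fcgr4 per Fcer1g (23.2) and the lowest for Syk per Fcer1g (30.5), while Tyrobp per Fcer1g stays between 40.3 and 60.0.

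The genes thus followed more than 1 order over the libraries. Over the 9 libraries, Pearson's r of log2(CPM + 1) was 1.00 for Fcer1g with Tyrobp, 0.98 for Syk with Plcg2, 0.97 for Trem2 with Fcgr1 and 0.97 for Fcgr2b with Fcgr3. It was lowest for Trem2 with Syk, at 0.53. The points share libraries and scaling, and T1D mouse 1 and Lira mouse 3 weigh heavily in each value. The 5 genes whose levels were most like those of Trem2 were Zmynd15 (r = 0.993), the scavenger receptor Msr1 (0.989), Havcr2 (0.989), which encodes TIM-3, Fgl2 (0.988) and Sh3gl1 (0.985). Msr1 is also a macrophage marker used below. The genes most like the mean of the 9 were Hpse (0.992), which encodes heparanase, Lyz2 (0.990), the lysozyme of myeloid cells, the RNA sensor Tlr8 (0.989), Rab32 (0.988) and Arl11 (0.987).

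The comparison of T1D with NGT asks what untreated diabetes changes in bone. Over the 13960 genes tested, edgeR's quasi-likelihood test called 0 differentially expressed genes (DEGs, adjusted p under 0.05 and a fold change over 2), which is 0% of them, and so 0 of the 9. The lowest Benjamini-Hochberg adjusted p was 0.977, 552 genes (3.95%) had an unadjusted p under 0.05, and DESeq2 called 0 DEGs at a lowest adjusted p of 0.00592 over all genes. DESeq2 gave no p for Trem2 and Fcgr1 in any of the 3 comparisons, so that its counts cover 7 of the 9 genes. The fitted log2 fold change was positive for 9 of the 9 genes, from 0.26 to 3.75 with a median of 2.05, against a median of 0.02 over all genes. At an unadjusted p under 0.05, 2 of the 9 (Trem2 and Fcgr2b) were higher, beside 2.36% of all genes, and nothing is read from this, since the genes were chosen with these levels known. The groups overlapped for 9 of the 9 genes, whereas 3.52% of tested genes were higher and 5.08% lower in T1D without overlap. Without T1D mouse 1, the log2 fold changes lay between -0.38 and 0.77 with a median of 0.15, above 0 for 6 genes and below 0 for 3. That fit ignores the replicate numbers and keeps NGT mouse 1, which bears the same number as T1D mouse 1 and was the highest NGT library for 9 of the 9 genes.

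Same-numbered NGT and T1D mice varied together across genes and were also set side by side. For mouse 1, the T1D level was above the NGT level for 8 of 9 genes, by 1.2 times for Plcg2 to 16.2 times for Fcgr4, and Syk was at 0.919 times. For mouse 3, it was above for 9 of 9, by 1.05 times for Fcgr1 to 3.37 times for Fcgr4. For mouse 2, the genes with enough counts were above by 2.78 times for Syk to 6.05 times for Fcgr2b, while Fcgr1 had 6 counts against 1, Fcgr4 had 4 against 0 and Trem2 had 20 against 2. With the replicate number as a block over all 9 libraries, the median log2 fold change was 1.86 and 4 of 9 genes had an unadjusted p under 0.05, beside 5.39% of all genes. With the block and the NGT and T1D libraries alone, 8 of 9 had such a p, beside 14.2% of all genes, and the lowest adjusted p over all genes was 0.229 in edgeR's test. Nothing is read from these shares either, since the genes were chosen with these levels known.

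The comparison of Lira with T1D asks what liraglutide changes in diabetic bone, and it uses the same 3 T1D mice. edgeR called 0 DEGs (0%), with a lowest adjusted p of 0.978 and 465 genes (3.33%) at an unadjusted p under 0.05. DESeq2 called 1 DEG, Gpm6b, a membrane glycoprotein gene, again without a p for Trem2 and Fcgr1. The fitted log2 fold change of Lira against T1D was -2.79 ± 1.30 (SE) for Trem2, -2.67 ± 1.45 for Fcgr1, -1.84 ± 1.65 for Fcgr4, -1.18 ± 0.87 for Fcgr2b and -1.11 ± 1.04 for Fcgr3. It was -0.67 ± 1.18 for Fcer1g, -0.40 ± 1.21 for Tyrobp, 0.35 ± 1.06 for Plcg2 and 0.67 ± 1.08 (SE) for Syk. The 7 receptors and adaptors were thus on the lower side and the kinase and phospholipase on the higher, with 0 of the 9 at an unadjusted p under 0.05. The groups overlapped for 9 of 9 genes, beside 3.74% of tested genes higher and 3.4% lower without overlap.

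This order rested on single mice. Without T1D mouse 1, the log2 fold change of Lira against T1D was above 0 for 9 of 9 genes, from 0.10 for Trem2 to 1.72 for Fcgr4. Without Lira mouse 3, it was below 0 for 9 of 9, from -0.91 for Syk to -3.62 for Fcgr1. Without both mice, Fcgr1 no longer passed the filter on low counts, and the other 8 lay between -0.84 for Fcer1g and 0.45 for Fcgr4, with 7 below 0.

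**Figure D3:**
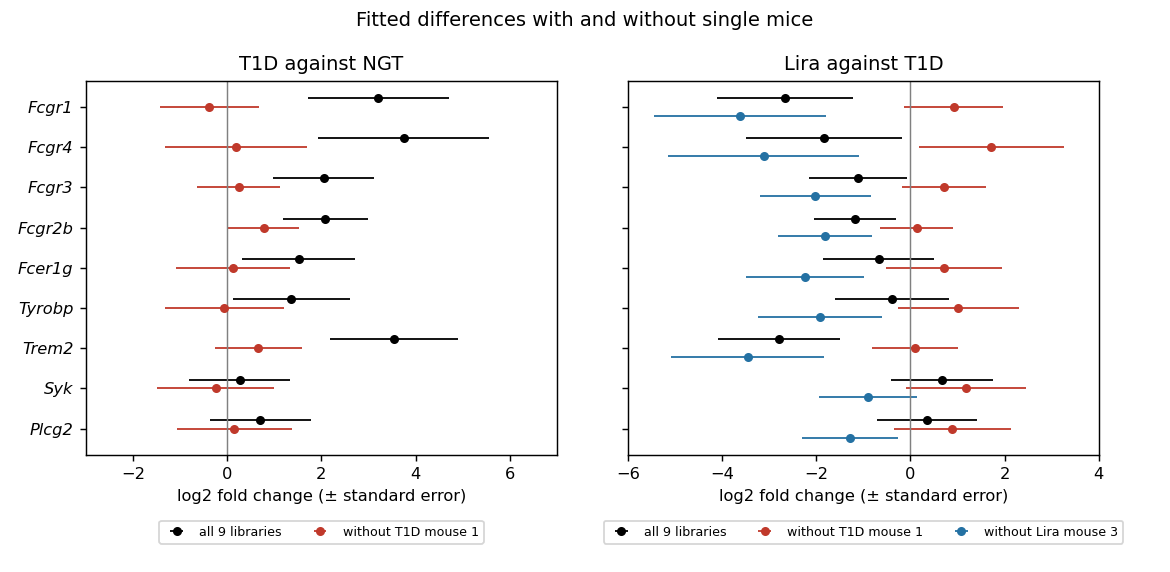
Log2 fold change (horizontal axis, ± SE) of each gene for T1D against NGT (left) and Lira against T1D (right), from all 9 libraries (black), without T1D mouse 1 (red) and without Lira mouse 3 (blue, right panel). On the left, 9 of 9 values from all libraries are positive and fall to between -0.38 and 0.77 without T1D mouse 1. On the right, all 9 are positive without T1D mouse 1 and all 9 negative without Lira mouse 3.

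Between Lira and NGT, edgeR called 0 DEGs (0%), with a lowest adjusted p of 0.999, 109 genes (0.781%) at an unadjusted p under 0.05, and 0 DEGs by DESeq2. The log2 fold change was above 0 for 9 of 9 genes, from 0.54 ± 1.45 (SE) for Fcgr1 to 1.91 ± 1.73 for Fcgr4, with a median of 0.93. The groups overlapped for 9 of 9, beside 2.49% of tested genes higher and 1.78% lower without overlap. Without Lira mouse 3, 4 genes were above 0 and 5 below, between -0.72 for Fcer1g and 0.63 for Fcgr4.

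Further genes of the pathway were taken from hand-written lists, of which 126 genes were tested, with 0 DEGs in each comparison. In T1D against NGT, 5 genes were higher and 1 lower at an unadjusted p under 0.05, beside 2.36% and 1.6% of all genes. The higher genes were Ms4a7, Lair1, Spp1, Apoe and Fos, and the lower was Inppl1. None of these had an adjusted p under 0.977 in edgeR's test.

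The list of Trem2 ligands, shedding proteases and genes of Trem2-high macrophages held 3 of these genes among 18 tested. Apoe, a lipoprotein that Trem2 binds, was at 118.18, 34.66 and 30.12 FPKM in NGT mice, 567.14, 68.67 and 82.95 FPKM in T1D mice and 64.46, 53.12 and 83.61 FPKM in Lira mice. Spp1, which encodes osteopontin, was at 60.66, 2.65 and 17.15 FPKM in NGT mice, 221.90, 72.75 and 175.52 FPKM in T1D mice and 51.87, 6.04 and 142.83 FPKM in Lira mice. For Spp1, all T1D mice were above all NGT mice. Ms4a7, a macrophage membrane protein, was at 30.59 FPKM in T1D mouse 1 and at 0.05 to 1.41 FPKM in the other 8 libraries, and so its log2 fold change of 4.15 ± 1.60 (SE) came from 1 mouse. The most abundant genes of the list were lysosomal or lipid-handling enzymes: cathepsin D (Ctsd) was at 255.45 to 461.85 FPKM, cathepsin B (Ctsb) at 208.52 to 756.45 FPKM and lipoprotein lipase (Lpl) at 149.51 to 432.93 FPKM, with the highest Lpl in NGT mouse 2. T1D mouse 1 had the highest Ctsb on both scales, but the highest Ctsd in FPKM only, since in CPM Ctsd was at 725 there and at 853 in NGT mouse 2.

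Among 28 inhibitory receptors, phosphatases and negative regulators, 1 was higher and 1 lower in T1D. Lair1, an inhibitory receptor for collagen, was at 9.87 FPKM in T1D mouse 1 and at 0.04 to 1.36 FPKM elsewhere. Inppl1, which encodes the lipid phosphatase SHIP2, was at 41.57, 33.42 and 28.56 FPKM in NGT mice and 28.97, 26.07 and 16.67 FPKM in T1D mice, with a log2 fold change of -0.62 ± 0.26 (SE). The groups overlapped in FPKM, whereas in CPM the T1D mice, at 89.3 to 128, were all below the NGT mice, at 156 to 181. The other 2 most abundant genes of the list were the phosphatase Ptpn11, at 14.11 to 25.00 FPKM, and the inhibitory receptor Lilrb4a, which ranged from 0.66 FPKM in NGT mouse 2 to 59.23 FPKM in T1D mouse 1. Among 15 calcium and NFAT genes, Fos was higher, at 3.36, 2.94 and 1.47 FPKM in NGT mice and 11.30, 4.94 and 2.91 FPKM in T1D mice. The calcineurin subunits Ppp3cb, Ppp3ca and Ppp3r1 were the most abundant of that list, at 80.19 to 163.02, 66.17 to 105.55 and 62.84 to 86.86 FPKM.

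For 29 Src family kinases and membrane-proximal adaptors, 0 genes had an unadjusted p under 0.05 in any comparison, and 22 of 29 had a positive log2 fold change in T1D with a median of 0.53. The adaptor Grb2 was at 20.65 to 38.36 FPKM, the kinase Prkcd at 2.92 to 19.71 FPKM and the Src family kinase Lyn, which phosphorylates ITAMs, at 2.5 to 21.23 FPKM. Lyn, like Syk, was highest in Lira mouse 3. In the list of other ITAM-linked receptors, 0 of 29 genes had such a p, and the most abundant were Cd79a and Cd79b, the signaling chains of the B cell receptor, and Cd177, a neutrophil surface protein that is itself anchored by lipid and carries no ITAM. The osteoclast receptor Oscar, a partner of Fcer1g, was at 0.37, 0.04 and 0.27 FPKM in NGT mice, 1.44, 0.25 and 0.89 FPKM in T1D mice and 0.36, 0.04 and 0.60 FPKM in Lira mice. Of 13 other Fc receptors, 7 passed the filter, and Fcgrt, the neonatal Fc receptor, was the most abundant, ahead of Fcmr, the receptor for IgM, and Trim21, a cytosolic receptor for antibody. Heavy chains of IgG, the ligands of the Fc gamma receptors, were not analysed, since 0 of 4 such genes (Ighg1, Ighg2b, Ighg2c and Ighg3) were found by symbol in the expression table.

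In Lira against T1D, 2 genes of the 126 were higher and 3 lower at an unadjusted p under 0.05, beside 1.55% and 1.78% of all genes. Ptpn11, with a log2 fold change of 0.46 ± 0.19 (SE), and the ubiquitin ligase Cbl, with 0.76 ± 0.32, were higher. Fcgrt was at 42.96, 23.17 and 23.94 FPKM in T1D mice and 16.76, 21.12 and 20.68 FPKM in Lira mice, so that the groups did not overlap on this scale, whereas in CPM Lira mouse 2, at 40.5, was just above T1D mouse 2, at 40.4. Its log2 fold change was -0.49 ± 0.18 (SE). Cd63, a tetraspanin of late endosomes, was at 267.21, 136.17 and 120.52 FPKM in T1D mice and 100.65, 102.12 and 128.08 FPKM in Lira mice. Ms4a7 was the other lower gene. The lowest adjusted p of these 5 genes in edgeR's test was 0.978. In Lira against NGT, 0 of the 126 and 0 of the 9 had an unadjusted p under 0.05, beside 0.487% of all genes higher and 0.294% lower.

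Markers of cell types moved with the genes, and their part in the results was not tested. In bulk tissue, fewer cells of a type and less RNA per cell cannot be told apart. The summed FPKM of 12 macrophage markers was 20.6 to 97.1 in NGT mice, 55.7 to 966 in T1D mice and 52.6 to 93.5 in Lira mice. T1D mouse 1 held the maximum, 9.95 times the next library, and was the highest library for 10 of the 12 markers. C1qa, C1qb and C1qc, the chains of complement C1q, were at 267.85, 288.81 and 230.14 FPKM there and at 2.71 to 24.25 FPKM elsewhere. Mrc1, the mannose receptor, made up 0.895 of every 100 FPKM of this sum in T1D mouse 1 and 3.9 to 5.77 in the other libraries. Per 100 FPKM of macrophage markers, Trem2 was at 2.63, 2.17 and 1.17 FPKM in T1D mice, 1.62, 0.631 and 1.36 in NGT mice and 1.73, 0.578 and 2.21 in Lira mice. On that base, T1D mouse 1 was the highest library for Trem2 but close to Lira mouse 3 and T1D mouse 2, and it was the lowest of the 9 for Syk, Plcg2 and Fcgr2b, at 0.884, 0.468 and 4.14 FPKM. Fcgr3 was at 7.08 FPKM there, near the lowest value of 6.9. Per 100 FPKM of the osteoclast markers described below, T1D mouse 1 stood far apart for Trem2, at 9.42 FPKM against 0.47 to 1.82 in the other libraries. It was also the highest there for Fcgr1, at 3.23 against at most 0.68, for Fcgr4, at 9.97 against at most 2.97, and for C1qa, at 99.1 against at most 49.4. On the macrophage base Fcgr1 was highest in T1D mouse 1 as well, at 0.904 FPKM, beside 0.899 in Lira mouse 3. Fcgr4 was highest in Lira mouse 3 on that base, at 5.51 FPKM, with T1D mouse 1 at 2.79.

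Neutrophil and erythroid markers pointed to other libraries. The summed FPKM of 12 neutrophil markers was 6.31 to 3900 in NGT mice, 78.5 to 2190 in T1D mice and 141 to 7870 in Lira mice, and all 12 were highest in Lira mouse 3. S100a9 was at 2578.43 FPKM in Lira mouse 3 and at 1.68 FPKM in NGT mouse 2. The 8 erythroid markers summed to 449 to 9570 FPKM in NGT mice, 636 to 21300 in T1D mice and 963 to 41600 in Lira mice, and all 8 were highest in Lira mouse 3 as well. The 3 libraries with the most Syk and Plcg2, which were Lira mouse 3, NGT mouse 1 and T1D mouse 1, also held the 3 highest sums of neutrophil markers. This was not particular to neutrophils. The same 3 libraries were highest for macrophage, monocyte and dendritic cell, B cell, and T and NK cell sums. They were also highest for mast cell and basophil, megakaryocyte and platelet, and osteoblast and osteocyte sums, but not for osteoclast, erythroid or skeletal muscle sums. NGT mouse 2, the lowest library for 9 of the 9 genes, was also the lowest for the sums of macrophage, osteoclast, neutrophil and erythroid markers.

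The summed FPKM of 12 osteoclast markers was 20.3 to 105 in NGT mice, 66.4 to 270 in T1D mice and 27.9 to 174 in Lira mice. Acp5, tartrate-resistant acid phosphatase, was at 30.91, 1.96 and 8.24 FPKM in NGT mice, 101.32, 19.96 and 60.01 FPKM in T1D mice and 23.23, 2.53 and 50.94 FPKM in Lira mice. Ctsk, the collagen-degrading cathepsin K, followed the same order of mice within T1D, and both genes overlapped between NGT and T1D in FPKM. In CPM, Ctsk was at 32.7 in T1D mouse 2 and at 30.4 in NGT mouse 1, so that these groups just failed to overlap. Osteoblast and osteocyte markers summed to 36.7 to 446 FPKM in NGT mice, 150 to 1680 in T1D mice and 78.1 to 371 in Lira mice, again with T1D mouse 1 at the top. The labelled tissue is tibia, and its bone markers were present, but 9 skeletal muscle markers summed to 64100 to 116000 FPKM in the 9 libraries although the methods describe bones cleaned of muscle. This sum was lowest in T1D mouse 1, Lira mouse 3 and NGT mouse 1, at 64100, 72000 and 73000 FPKM, and was 94300 to 116000 FPKM elsewhere. The same libraries ranked highest over the 9 genes, with median ranks of 1, 2 and 3 in that order. The part of muscle content in the levels was not tested.

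**Figure D4:**
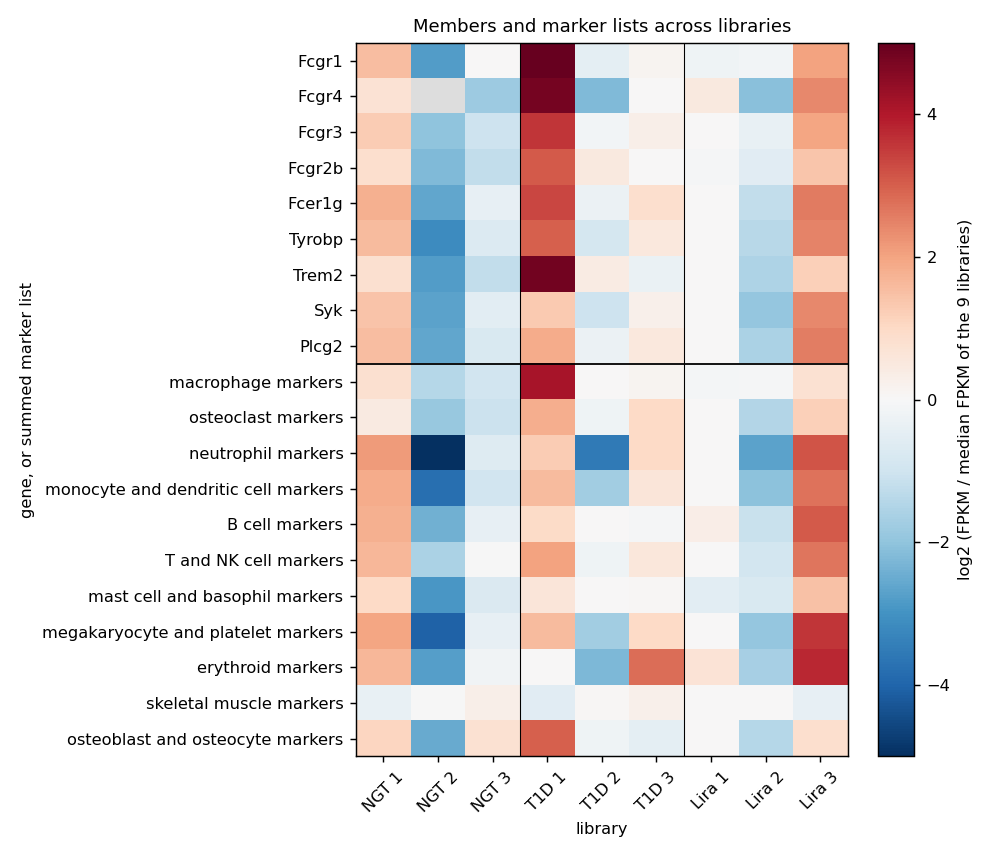
Log2 of the FPKM over the median of the 9 libraries (color, limited to -5 and 5) for each of the 9 genes (upper rows) and for the summed FPKM of each marker list (lower rows), by library. The grey cell stands for 0 FPKM. T1D mouse 1 is the highest column for macrophage, osteoclast and osteoblast markers and for 7 of the 9 genes, Lira mouse 3 for neutrophil and erythroid markers, Syk and Plcg2, and NGT mouse 2 is low for most rows.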

How the data were processed

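RNA from tibiae cleaned of muscle was enriched with oligo(dT) and sequenced from DNA nanospheres, 1 library per mouse. The authors deposited expected counts (estimated read counts per gene, not normalized, of which 30.2% were not whole) and FPKM, a level per length of gene and per library total that the authors computed. The build is mm9 per the submitters' processing notes, while aligner, counting tool, annotation and strand setting are not given in the sources used here. Sequences are from GRCm38, and the builds were not combined. All 9 libraries were mapped by their labels, and no pair of them held identical values.

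Counts were rounded, and the filter kept genes that reached 10 counts in 3 or more libraries (13960 of 18272). 3 group means over all 9 libraries were fitted in R 4.3.3 with edgeR 4.0.16 (TMM, glmQLFit, glmQLFTest), and SEs come from the F statistic. The paper's thresholds (adjusted p under 0.05, fold change over 2) were kept, and its analysis of variance was replaced by this count test. The paper's further condition, detection in all mice of a group, was not applied. Alternatives were DESeq2 1.42.0, library size, no filter, fits of 2 groups, replicate blocks, limma 3.58.1 on log2(FPKM + 1), and leaving out each mouse, and the omission of T1D mouse 1 together with Lira mouse 3 was added after seeing the data.

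Replicate numbers pair NGT with T1D mice: deviations from group means correlated at 0.583, 0.647 and 0.283 across genes for mice of the same number. Lira mice of the same number did not all vary together with the other groups, at -0.244, 0.615 and 0.271 with T1D mice and -0.173, 0.727 and 0.012 with NGT mice. Lira mouse 3 and NGT mouse 1, of unlike number, correlated at 0.78.

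The 9 genes, the gene lists and the tests were chosen with earlier results of these data known, and the lists were written by hand. Genes named are the 9, at most the 3 most abundant of each list, list genes at an unadjusted p under 0.05, and the 5 genes most like Trem2 or the mean of the 9. Oscar, Mrc1 and Gpm6b were named after their values were seen. The authors' group means were not used.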

Additional observations from a re-analysis of the deposited data

How the results depend on the processing

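The number of DEGs was 0 in each comparison under the alternatives, except for 1 (Gpm6b) in Lira against T1D with DESeq2, which gave no p for Trem2 and Fcgr1. The number of list genes at an unadjusted p under 0.05 in T1D against NGT, 6 in the reported fit, was 1 with library size in place of TMM (beside 3.4% of all genes), 2 without T1D mouse 1 and Lira mouse 3 (3.84%), and 1 to 12 when single mice were left out (1.61% to 7.32%). In Lira against T1D, where it was 5, it was 0 with library size (2.51%), 0 without both mice (3.66%), and 0 to 6 when single mice were left out (1.83% to 5.35%). In Lira against NGT, where it was 0, it was 1 with the replicate block (1.15%) and 0 to 6 when single mice were left out (0.423% to 3.2%). The median log2 fold change of the 9 genes in T1D against NGT, 2.05 in the reported fit, was 0.13 without both mice and 0.15 to 3.14 when single mice were left out, with the lowest value without T1D mouse 1. In Lira against T1D it was -1.11, and -2.02 to 0.89 when single mice were left out, with the highest value without T1D mouse 1 and the lowest without Lira mouse 3. In Lira against NGT it was 0.93, and -0.40 to 2.13 when single mice were left out, with the lowest value without Lira mouse 3, 0.43 without NGT mouse 2 and the highest without NGT mouse 1. Where a value moved, the cause was not tested beyond the omission that moved it. The replicate block, which sets same-numbered mice together, left the median in T1D against NGT at 1.86 and the number of DEGs at 0. In Lira against T1D, where same-numbered mice did not all vary together, the same block moved the median to -0.43, Trem2 to -1.75, Fcgr1 to -1.09 and Fcgr4 to -0.43. In Lira against NGT it moved the median to 1.35. With limma on log2(FPKM + 1), a scale that shrinks differences of low genes, T1D against NGT was at 1.55 for Trem2, 0.92 for Fcgr1 and 1.44 for Fcgr4, and Lira against T1D at -1.24 for Trem2, -0.80 for Fcgr1, -0.63 for Fcgr4, 0.11 for Syk and -0.07 for Plcg2. Fcgr1 could not be fitted without both mice, nor with only the Lira and NGT libraries, because it then failed the low-count filter. Within groups the 9 genes had SDs of 1.15 to 1.87 on the log2 scale, Fcgr1 and Trem2 had at most 35 counts in all libraries but T1D mouse 1, and fitted log2 differences of up to 3.75 were not called with 3 mice per group.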

Other observations

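Further marker lists gave values beside the 9 genes. The 8 B cell markers summed to 3.48 to 63.2 FPKM in NGT mice, 17.4 to 35.4 in T1D mice and 8.42 to 154 in Lira mice, with Cd79a, Ebf1 and Cd79b as the most abundant. The 7 megakaryocyte and platelet markers, led by the chemokines Ppbp and Pf4 and the integrin Itga2b, summed to 2.14 to 136, 10.4 to 105 and 9.15 to 420 FPKM in the same order. The 8 monocyte and dendritic cell markers, led by Ly6c2, Ccr2 and Cx3cr1, summed to 1.59 to 79.0, 6.55 to 65.7 and 5.26 to 143 FPKM. Lira mouse 3 was the highest library for all 3 sums. The 8 mast cell and basophil markers, led by Prss34, Mcpt8 and Mcpt4, summed to 1.86 to 28.3, 14.1 to 21.2 and 8.39 to 39.1 FPKM, and the 8 T and NK cell markers, led by Nkg7, Cd247 and Cd3g, to 1.48 to 13.7, 3.8 to 17.5 and 2.29 to 28.1 FPKM.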
